A study of Homo sapiens with 6 samples.

Results

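Mitochondrial DNA (mtDNA) is transcribed and copied by proteins that are encoded in the nucleus, and 10 of these factors are described here: *POLRMT*, *TFAM*, *TFB2M* and *TEFM*, which act in transcription, *TWNK*, *POLG*, *POLG2* and *SSBP1*, which act in replication, and *LRPPRC* and *SLIRP*, which bind and stabilize the mRNAs. The genes were chosen by name for their known function, not by a measured value, and all 10 of the 10 were found among the 21475 genes in the tables. However, these genes and the gene lists below were chosen with earlier results of these data known. Their counts beside those of all tested genes are thus a description. RNA-seq was performed with HaCaT cells, a spontaneously immortalized human keratinocyte line, in 3 wild-type (WT) and 3 *FGFR2* knockout (KO) libraries labelled rep1 to rep3. The KO lines were made with CRISPR/Cas9 ribonucleoproteins and 1 sgRNA against *FGFR2*, the receptor for FGF7 and FGF10 in keratinocytes, and were expanded from single cells. The study describes the WT HaCaT libraries sequenced here as clonally expanded lines, although its set of WT lines also held the unsorted starting population, and the labels do not tell the WT lines apart. All lines were cultured in high-glucose medium with serum, and no group of these libraries was treated with a growth factor or cytokine according to the labels. Each KO line is thus 1 clone, and the spread between KO libraries includes differences between clones.

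Levels are given as FPKM, fragment counts corrected for transcript length and library size, so that genes can be compared with each other. The step between low FPKM values gave an estimated depth of 67800000 to 88100000 fragments per library. *FGFR2* was measured at 21.6, 39.7 and 15.0 FPKM in the WT and at 3.04, 2.26 and 4.31 FPKM in the KO libraries, and the groups did not overlap (log2 fold change -2.73, SE 0.36, adjusted p = 0.261 with limma). The summed level of 10 keratinocyte markers was 17668 to 25281 FPKM in WT and 21235 to 37716 FPKM in KO. Summed markers of other skin cells reached 33.2 FPKM for 6 fibroblast genes, 5.58 FPKM for 5 melanocyte genes and 1.77 FPKM for 5 immune genes, each in WT rep2, and 3, 3 and 2 genes of these lists, respectively, were under 0.1 FPKM in all 6 libraries. In these bulk libraries, fewer cells that express a gene and less RNA per cell cannot be told apart.

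Transcription of mtDNA starts when TFAM bends the promoter DNA and recruits POLRMT, the single-subunit RNA polymerase of mitochondria, which needs TFB2M to open the DNA and TEFM to elongate over long distances. The long transcripts run over nearly a whole strand and are cut into mRNAs, tRNAs and rRNAs, and short transcripts of the same polymerase serve as primers for replication by POLG with its accessory subunit POLG2, the helicase Twinkle (TWNK) and the single-strand binding protein SSBP1. The polymerase and the binding proteins act on RNAs that keratinocytes, like other cells, need for respiratory chain subunits. Several genes of these factors are known targets of the nuclear respiratory factors NRF1 and NRF2, the latter an ETS-family protein also called GABP.

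The promoter sequences were searched for letters of such motifs. Sequences of the 250 bases before each RefSeq transcription start (GRCh38.p14) were given for 9 of the 10 genes, and *TWNK* is named only. CGCNTGCGC, a letter form of the NRF1 motif, was found on either strand in 4 of these 9 genes, *POLRMT*, *TFAM*, *TFB2M* and *POLG2*, compared with 6.56% of 35116 windows of the same length and 15.5% of 9809 tested genes with a window. CCGGAA, a core of ETS-family motifs, was found in 5 of 9 genes, *POLRMT*, *TEFM*, *POLG2*, *SSBP1* and *SLIRP*, compared with 14.5% of windows and 30.9% of tested genes. In *SSBP1* the match lay 244 bases before 1 of its starts and was absent from the windows of its other starts. The letters CACGTG, the E-box bound by MYC among others, were found in 0 of the 9 genes, compared with 6.34% of windows and 11.1% of tested genes. The 4 promoters with the NRF1 letters, and that of *SLIRP*, which held CCGGAA or its reverse complement 4 times, are shown 5′ to 3′ with the matched letters in capitals, and the 3 NRF1 matches of *POLRMT* overlap each other.
POLRMT promoter, chr19:633538-633787, minus strand: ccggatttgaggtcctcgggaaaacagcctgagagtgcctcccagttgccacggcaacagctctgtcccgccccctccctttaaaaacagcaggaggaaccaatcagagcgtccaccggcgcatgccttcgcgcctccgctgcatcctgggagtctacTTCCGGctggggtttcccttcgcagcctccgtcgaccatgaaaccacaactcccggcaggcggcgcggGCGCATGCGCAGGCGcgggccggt
TFAM promoter, chr10:58385160-58385409, plus strand: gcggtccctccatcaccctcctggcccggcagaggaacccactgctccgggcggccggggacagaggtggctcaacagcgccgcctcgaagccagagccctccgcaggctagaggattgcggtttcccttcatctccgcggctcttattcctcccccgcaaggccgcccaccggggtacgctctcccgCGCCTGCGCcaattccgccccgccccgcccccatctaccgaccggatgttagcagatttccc
TFB2M promoter, chr1:246566262-246566511, minus strand: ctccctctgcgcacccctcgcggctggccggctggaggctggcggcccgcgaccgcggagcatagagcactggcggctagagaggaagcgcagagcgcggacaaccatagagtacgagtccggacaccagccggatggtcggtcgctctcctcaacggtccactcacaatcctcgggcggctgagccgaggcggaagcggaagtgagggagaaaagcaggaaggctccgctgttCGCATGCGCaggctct
POLG2 promoter, chr17:64497055-64497304, minus strand: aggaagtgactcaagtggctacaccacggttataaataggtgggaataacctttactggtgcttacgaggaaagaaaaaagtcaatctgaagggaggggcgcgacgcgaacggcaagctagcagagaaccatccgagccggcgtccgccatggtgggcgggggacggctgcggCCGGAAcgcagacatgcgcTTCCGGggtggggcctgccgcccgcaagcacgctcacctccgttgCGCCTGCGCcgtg
SLIRP promoter, chr14:77707853-77708102, plus strand: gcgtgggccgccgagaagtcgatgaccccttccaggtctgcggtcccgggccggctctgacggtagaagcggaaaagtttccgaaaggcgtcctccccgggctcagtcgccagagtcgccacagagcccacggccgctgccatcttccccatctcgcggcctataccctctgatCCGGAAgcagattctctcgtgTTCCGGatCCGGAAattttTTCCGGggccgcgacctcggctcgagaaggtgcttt
The letters of the motifs were chosen with the sequences known, and a match is a description, not a binding site. Other letter forms of these motifs were not searched, so that a gene without a match can still hold one. In *TFB2M* the NRF1 letters began 16 bases before the start, in *POLG2* 13 bases, in *TFAM* 62 bases, and in *POLRMT* 24, 23 and 18 bases. These distances are to RefSeq starts, which can differ from the GENCODE gene spans given below. For *TFAM* and *SLIRP* the window shown reaches into the GENCODE span of the gene. The NRF1 match of *TFAM* and the CCGGAA match of *SSBP1* lie within these spans. The target of the encoded proteins is shown by the 200 bases before *MT-TF*, the first tRNA gene of the mitochondrial genome, a stretch that holds the start sites for both strands (hg38, chrM:377-576, light-strand sequence, with no letters marked).
mtDNA before MT-TF: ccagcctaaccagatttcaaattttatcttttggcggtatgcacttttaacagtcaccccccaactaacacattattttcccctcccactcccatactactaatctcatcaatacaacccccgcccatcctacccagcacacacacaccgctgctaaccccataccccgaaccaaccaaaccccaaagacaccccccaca

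All 10 factors had a higher fitted level in KO than in WT, by a log2 fold change between 0.18 for *TFAM* and 0.62 for *TWNK*, with a median of 0.47. Over all 12241 tested genes the median was 0.09, and 60.6% of genes had a positive log2 fold change. However, none of the 10 genes was called with limma (adjusted p of 0.05 or less and a log2 fold change of 0.5 or more in either direction). No gene of all tested genes (0%) was called, and adjusted p-values began at 0.261, whereas 1251 genes were higher and 285 lower in KO at an unadjusted p of 0.05 and the same fold change. The study itself reported differentially expressed genes between KO and WT lines with a count model. The lack of calls in this fit, which includes *FGFR2*, thus does not mean that no gene differed. At the same fold change and an unadjusted p of 0.05 or less, 4 factors were higher in KO, *POLRMT*, *TFB2M*, *TWNK* and *SLIRP*, compared with 10.2% of all tested genes. Without the fold-change limit these were 6, with *TEFM* and *SSBP1*, compared with 13.7%. For 5 factors, *POLRMT*, *TEFM*, *TWNK*, *POLG2* and *SSBP1*, all KO libraries lay above all WT libraries, compared with 18.3% of all tested genes. These counts depended on how the libraries were scaled: median-of-ratios scaling left 0 factors at the unadjusted threshold, a common sum of nuclear FPKM left 2, and a common sum of all FPKM gave 6. Of all 12241 tested genes, 785, 930 and 1458, respectively, were higher in KO at this threshold, compared with 1251 as deposited. The number of factors whose KO libraries all lay above the WT libraries was 6 with a common sum of nuclear FPKM (15.5% of all tested genes), where *TFB2M* and *POLG* joined and *POLG2* dropped out, and 4 with median-of-ratios scaling (12.2%). All 10 log2 fold changes stayed above 0 under each of these scalings. With 3 libraries per group, the exact two-sided permutation test of a single gene cannot give a p below 0.1.

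**Figure D1:**
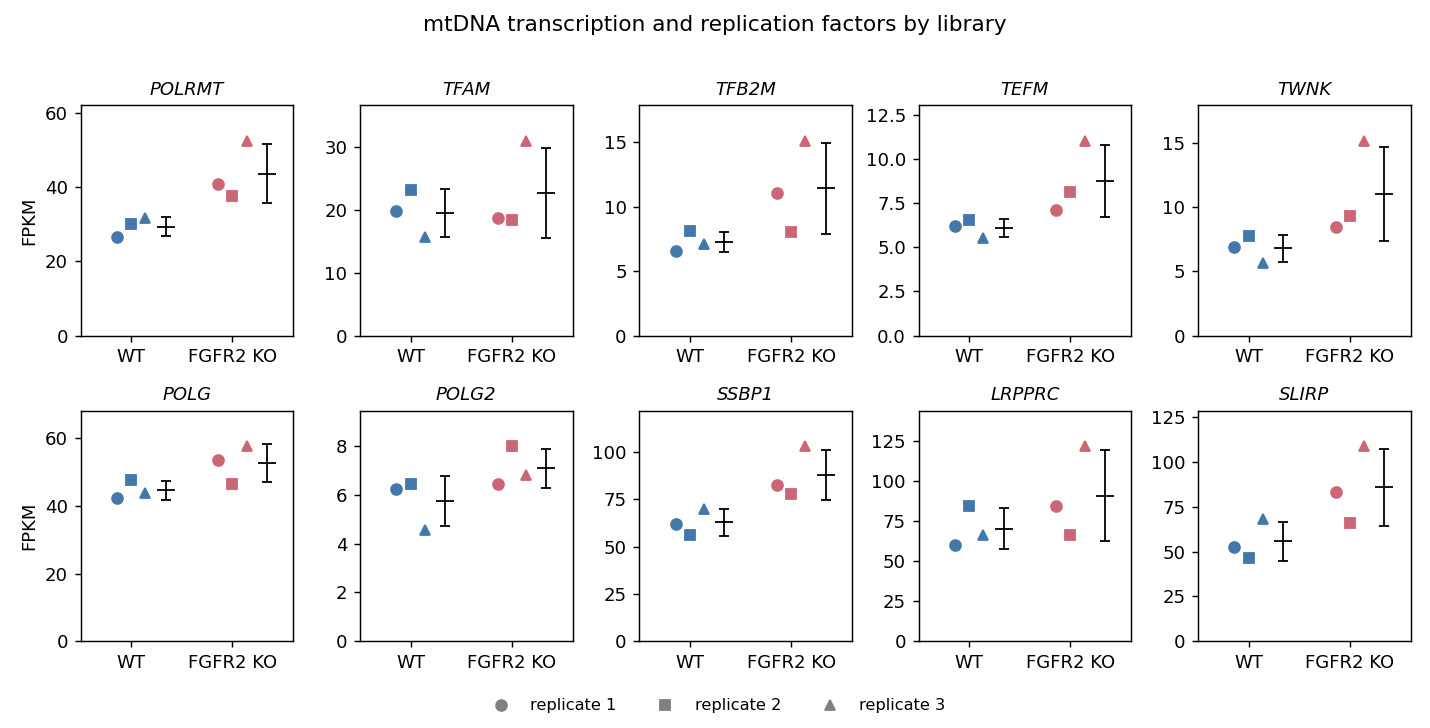
FPKM of the 10 factors (panels, each with its own linear axis) in 3 WT and 3 *FGFR2* KO libraries, 1 point per library (circle rep1, square rep2, triangle rep3), with the mean and SD (n = 3) of each group beside the points. KO rep3 is the highest of the 6 libraries for 9 factors and KO rep2 for *POLG2*.

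Among the transcription factors of mitochondria, *POLRMT* (ENSG00000099821, chr19:617221-633537, minus strand, GRCh38) encodes the RNA polymerase itself. It was measured at 26.4, 29.9 and 31.7 FPKM in WT and at 40.7, 37.4 and 52.5 FPKM in KO. The groups did not overlap, and the lowest KO library, rep2, lay above the highest WT library, rep3. The level was 29.3 ± 2.67 (SD, n = 3) in WT and 43.5 ± 7.91 FPKM in KO, a log2 fold change of 0.55 (SE 0.16) on the log2(FPKM + 0.5) scale used throughout. The unadjusted p of limma was 0.0112, the smallest of the 10 factors, the Benjamini-Hochberg adjusted p was 0.261 and the exact permutation p was 0.1. When single libraries were left out, the log2 fold change was 0.41 (without KO rep3) to 0.65 (without KO rep2). With chromosome medians removed it was 0.45.

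*TFAM* (ENSG00000108064, chr10:58385345-58399220, plus strand) encodes the protein that also packages mtDNA into nucleoids, and its amount is known to follow mtDNA copy number. It was the factor with the smallest difference, at 19.8, 23.2 and 15.7 FPKM in WT and 18.7, 18.4 and 31.1 FPKM in KO. KO rep1 and rep2 lay within the WT range and KO rep3 above it. This gave a log2 fold change of 0.18 (SE 0.24, adjusted p = 0.711 with limma), and it was -0.06 without KO rep3 and 0.04 without WT rep3. The gene lies on chromosome 10, where the median of 463 genes in KO rep1 was -0.33 (log2) relative to the whole library, compared with -0.06 to 0.25 in the other 5 libraries, and the part of this in the level of *TFAM* was not tested beyond removing it. With chromosome medians removed, the log2 fold change of *TFAM* was 0.34.

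*TFB2M* (ENSG00000162851, chr1:246540561-246566261, minus strand), whose product melts the promoter for POLRMT, was measured at 6.59, 8.13 and 7.12 FPKM in WT and at 11.1, 8.05 and 15.1 FPKM in KO. KO rep1 and rep3 exceeded all WT libraries, whereas KO rep2 lay just under WT rep2. The log2 fold change was 0.58 (SE 0.23), with an unadjusted p of 0.0409 and an adjusted p of 0.285 (limma). *TEFM* (ENSG00000172171, chr17:30897336-30906238, minus strand), the elongation factor, was measured at 6.21, 6.53 and 5.52 FPKM in WT and at 7.13, 8.10 and 11.03 FPKM in KO. All KO libraries lay above all WT libraries. *TEFM* had a log2 fold change of 0.47 (SE 0.19), with an unadjusted p of 0.0430 and an adjusted p of 0.285 (limma). The gene lies on chromosome 17, where the median of 757 genes in WT rep3 was -0.25 (log2) relative to the whole library, and with chromosome medians removed the log2 fold change of *TEFM* was 0.29 (unadjusted p = 0.114, limma). Without KO rep3 the log2 fold changes of *TFB2M* and *TEFM* were 0.36 and 0.30.

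In the replication group, *TWNK* (ENSG00000107815, chr10:100987367-100994403, plus strand) encodes the helicase that unwinds mtDNA ahead of the polymerase. It was measured at 6.92, 7.79 and 5.69 FPKM in WT and at 8.49, 9.33 and 15.2 FPKM in KO, without overlap of the groups. Its log2 fold change of 0.62 (SE 0.24) was the highest of the 10 factors, with an unadjusted p of 0.0353 and an adjusted p of 0.277 (limma). It was 0.77 with chromosome medians removed and 0.37 without KO rep3. *TWNK* shares 149 exon bases with *MRPL43* on the opposite strand, a gene with a mean of 36.4 FPKM, and whether the quantification used strand is not given in the sources used here.

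*POLG* (ENSG00000140521, chr15:89305198-89334861, minus strand) encodes the catalytic subunit of the mtDNA polymerase. Levels of 42.2, 47.6 and 43.8 FPKM in WT stood against 53.5, 46.5 and 57.6 FPKM in KO, where rep1 and rep3 exceeded the WT libraries and rep2 lay between them. The log2 fold change was 0.23 (SE 0.14, adjusted p = 0.407 with limma), and 0.15 with chromosome medians removed. *POLG* shares 458 exon bases with *FANCI* on the opposite strand, which had a mean of 94.7 FPKM. *POLG2* (ENSG00000256525, chr17:64477785-64497054, minus strand), which encodes the subunit that makes the polymerase processive, was measured at 6.24, 6.44 and 4.55 FPKM in WT and at 6.46, 7.99 and 6.82 FPKM in KO. The groups did not overlap, but KO rep1 and WT rep2 were nearly equal, and *POLG2* was the only factor that was highest in KO rep2. *POLG2* had a log2 fold change of 0.29 (SE 0.19, adjusted p = 0.442 with limma). *POLG2* also lies on chromosome 17, and its log2 fold change was 0.10 with chromosome medians removed and 0.14 without WT rep3.

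*SSBP1* (ENSG00000106028, chr7:141738334-141787922, plus strand), whose product coats single-stranded mtDNA during replication, was measured at 62.1, 56.1 and 70.0 FPKM in WT and at 82.7, 77.6 and 103 FPKM in KO. All KO libraries lay above all WT libraries, and the level was 62.8 ± 6.98 FPKM in WT and 87.8 ± 13.4 FPKM in KO (SD, n = 3), a difference that did not pass the adjusted threshold. The log2 fold change was 0.48 (SE 0.16), with an unadjusted p of 0.0183 and an adjusted p of 0.261 (limma). It was 0.36 without KO rep3, 0.56 without KO rep2 and 0.38 with chromosome medians removed.

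*LRPPRC* and *SLIRP* encode the partners of 1 complex that protects mitochondrial mRNAs from decay and promotes their polyadenylation. *LRPPRC* (ENSG00000138095, chr2:43886224-43996226, minus strand) was measured at 60.0, 84.4 and 66.5 FPKM in WT and at 84.2, 66.1 and 122 FPKM in KO. KO rep3 alone lay above all WT libraries, and the log2 fold change was 0.33 (SE 0.24, adjusted p = 0.492 with limma). It was 0.10 without KO rep3, 0.54 without KO rep2 and 0.20 with chromosome medians removed. *SLIRP* (ENSG00000119705, chr14:77708071-77761104, plus strand) was measured at 52.4, 46.6 and 67.9 FPKM in WT and at 83.0, 66.0 and 109 FPKM in KO. KO rep1 and rep3 exceeded all WT libraries and KO rep2 lay just under WT rep3. The log2 fold change was 0.61 (SE 0.22), with an unadjusted p of 0.0260 and an adjusted p of 0.263 (limma). It was 0.43 without KO rep3, 0.78 without KO rep2 and 0.54 with chromosome medians removed. *SLIRP* shares 118 exon bases with *SNW1* on the opposite strand (mean 70.2 FPKM).

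**Figure D2:**
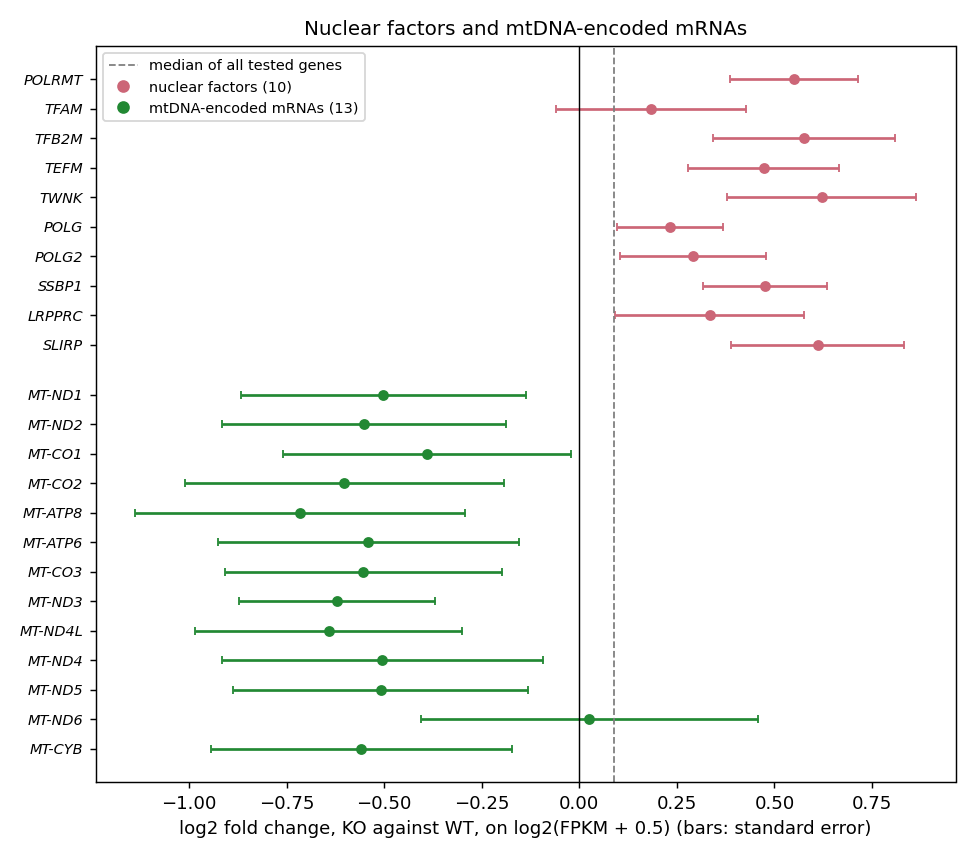
Log2 fold change of KO against WT (x axis, log2(FPKM + 0.5) scale) with its SE (bars) for the 10 factors and for the 13 mRNAs encoded in mtDNA, 1 row per gene, and a dashed line at the median of all 12241 tested genes, 0.09. The 10 factors lie right of 0 and 12 of the 13 mtDNA-encoded mRNAs left of it.

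The differences were carried unequally by the KO lines. Relative to the WT mean, the median of the 10 factors was 0.29 (log2) in KO rep1, 0.29 in KO rep2 and 0.81 in KO rep3, compared with 0.10, 0.05 and 0.15 for all tested genes. In the WT libraries it was -0.04, 0.13 and -0.05. The number of factors above all WT libraries was 8 in KO rep1, 5 in KO rep2 and 10 in KO rep3, compared with 40.1%, 31.1% and 45.8% of all tested genes. Removing chromosome medians lowered the log2 fold change of 8 of the 10 factors and raised it for *TFAM* and *TWNK*, with a median of 0.36. This step also removed shifts shared by a whole library, and the median of all tested genes was then -0.02 instead of 0.09. The median of the factors minus that of all tested genes was 0.38 instead of 0.39. When KO rep3 was left out, the median log2 fold change of the factors was 0.34 instead of 0.47, 9 of the 10 were above 0, and 0 of the 10 had an unadjusted p of 0.05 with a log2 fold change of 0.5. Leaving out WT rep1 also left 0 factors at this threshold, with a median of 0.47. Of all tested genes, 539 were higher in KO at this threshold without KO rep3 and 767 without WT rep1, compared with 1251 with all libraries. When libraries were weighted by their fit to the groups, an alternative added after the data were seen, *POLRMT* (adjusted p = 0.0323), *TFB2M* (0.0376) and *SLIRP* (0.0380, limma) were called, as were 1396 of all tested genes. WT rep1 then had a weight of 10.3, compared with 0.358 to 1.49 for the other 5 libraries.

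The levels of the factors spanned a wide range in WT cells. *LRPPRC* (70.3 FPKM), *SSBP1* (62.8 FPKM) and *SLIRP* (55.6 FPKM) were the most abundant and their libraries overlapped, so that their order was not larger than the spread between libraries. The WT libraries of *SLIRP* also overlapped with those of *POLG*. *POLG* (44.5 ± 2.81 FPKM) stood above *POLRMT* (29.3 ± 2.67 FPKM), and *POLRMT* above *TFAM* (19.6 FPKM), in all 3 WT libraries. The remaining 4 factors, *TFB2M* (7.28 FPKM), *TWNK* (6.80 FPKM), *TEFM* (6.08 FPKM) and *POLG2* (5.74 FPKM), lay close together. The WT libraries of *TWNK* overlapped with those of the other 3, and those of *TEFM* with those of *POLG2*, whereas each WT library of *TFB2M* lay above all those of *TEFM* and *POLG2*. The initiation and elongation factors TFB2M and TEFM were thus encoded by less abundant mRNAs than the polymerase they serve, and the helicase and the accessory subunit by less abundant mRNAs than the catalytic subunit.

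Ratios between partners within a library do not depend on the scaling of the libraries. For none of 7 ratios did KO and WT separate, and all exact permutation tests had an adjusted p of 0.7. The exact test of a single ratio cannot give a p below 0.1. After adjustment over the 7, a single separated ratio could still have stood at 0.7. The adjusted values thus cannot decide whether a single ratio differed. *TFAM* per *POLRMT* was 0.751, 0.777 and 0.494 in WT and 0.4601, 0.491 and 0.592 in KO, so that KO rep1 and rep2 lay just below WT rep3 and KO rep3 above it. The difference of the log2 ratios was -0.37 (exact permutation p = 0.2). For *TWNK* per *POLG* the ratio was 0.153 ± 0.0196 in WT and 0.208 ± 0.0530 in KO (SD, n = 3), a log2 difference of 0.42 (exact permutation p = 0.3). *SSBP1* per *POLG* was 1.42 ± 0.217 in WT and 1.67 ± 0.121 in KO (exact permutation p = 0.2). *SLIRP* per *LRPPRC*, the partners of the mRNA-binding complex, was 0.815 ± 0.240 in WT and 0.959 ± 0.0578 in KO (exact permutation p = 0.5). The log2 differences for *TFB2M* and *TEFM* per *POLRMT* and for *POLG2* per *POLG* were 0.05, -0.05 and 0.08, and each changed sign when single libraries were left out.

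Across the 6 libraries the 10 factors varied together to different degrees. Each of the 45 pairs had a positive Pearson correlation of log2 values, with a median of 0.79, a highest value of 0.99 between *TWNK* and *TEFM* and a lowest of 0.11 between *SLIRP* and *POLG2*. *POLG2* was the least alike, with 0.64 and 0.65 to *TWNK* and *TEFM* and 0.11 to 0.43 to the other factors. The correlations are a description over 6 libraries that share the difference between KO and WT and the high level in KO rep3. Those between pairs of all tested genes were not determined. The genes most like *POLRMT* were *GNL3*, a nucleolar GTPase, with r = 0.9997, and *ABCB10*, a transporter of the inner mitochondrial membrane, *ZNF200*, *MRPL17*, a mitochondrial ribosomal protein, and *PAXX*, a DNA repair factor, each with r = 0.997. Among all tested genes, 1572 had a correlation of at least 0.9 with *POLRMT*. *GNL3* was measured at 24.2, 29.6 and 33.3 FPKM in WT and at 53.2, 44.7 and 85.2 FPKM in KO, the same order of libraries as for *POLRMT*.

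The 13 mRNAs encoded in mtDNA, which POLRMT transcribes with its partners, had lower mean levels in KO for 13 of 13 genes, with a wide spread between the KO lines. Of these mRNAs, 12 are coded on the same strand and cut from shared long transcripts, so that they are not independent measurements. The share of the 13 mRNAs in the summed FPKM was 27.6, 21.5 and 22.2% in WT and 15.8, 23.7 and 11.9% in KO. KO rep1 and rep3 lay below all WT libraries and KO rep2 between them. The share was 23.8 ± 3.34% in WT and 17.1 ± 6.03% in KO (SD, n = 3), a difference of -6.61 percentage points with overlapping groups (exact permutation p = 0.3). The difference was -4.00 percentage points without KO rep3 and -9.91 without KO rep2. Without *MT-ATP8* and *MT-ND4L*, which overlap longer mRNAs, it was -5.20 percentage points (exact permutation p = 0.3).

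Of the 13 mRNAs, 12 had a negative log2 fold change (10 with quantile normalization), with a median of -0.55 and a range from -0.72 for *MT-ATP8* to 0.03 for *MT-ND6*. The median was -0.32 without KO rep3, -0.41 without WT rep1 and -0.84 without KO rep2. For *MT-ND6* the mean was nevertheless lower in KO (493 FPKM) than in WT (537 FPKM), and its log2 fold change was below 0 with a common sum of nuclear FPKM. None was called, and 1 had an unadjusted p of 0.05 and a log2 fold change of -0.5, compared with 2.33% of all tested genes. This was *MT-ND3*, a complex I subunit, which was measured at 4720, 3727 and 4362 FPKM in WT and at 2662, 3522 and 2251 FPKM in KO. Its log2 fold change was -0.62 (unadjusted p = 0.0401, adjusted p = 0.284 with limma). For 3 mRNAs, *MT-CO3*, *MT-ND3* and *MT-ND4L*, all KO libraries lay below all WT libraries, compared with 5.77% of all tested genes. With a common sum of nuclear FPKM this held for 1 mRNA, *MT-ND3*, compared with 7.77%. As most of these mRNAs come from shared transcripts, such counts are not comparable with shares of separately transcribed genes. KO rep1 and KO rep3 lay below all WT libraries for 12 mRNAs each and KO rep2 for 3. The share of all tested genes below all WT libraries in a single KO library was not determined, so that these counts have no background. KO rep2 thus differed from KO rep1 and KO rep3 for most of these mRNAs.

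The most abundant of these mRNAs was *MT-CO2*, a cytochrome c oxidase subunit, at 35856, 29932 and 33322 FPKM in WT and 21094, 32041 and 15137 FPKM in KO. The least abundant was *MT-ND6*, the only one transcribed from the other strand and known to lack a stable poly(A) tail, at 798, 233 and 580 FPKM in WT and 476, 615 and 389 FPKM in KO. The libraries were made from poly(A)-selected RNA, so that fewer mRNA molecules and shorter poly(A) tails cannot be told apart. The ribosomal RNAs of mtDNA, *MT-RNR1* and *MT-RNR2*, were not among the genes in the tables. Because FPKM values are shares of a library, a lower mtDNA-encoded share raises the FPKM of nuclear genes. With a common sum of nuclear FPKM the median log2 fold change was 0.40 for the 10 factors and 0.01 for all tested genes.

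The mtDNA-encoded FPKM per FPKM of *POLRMT* was 8144, 5500 and 5350 in WT and 2918, 4812 and 1679 in KO. The groups did not overlap, also for *TEFM*, *TWNK*, *POLG2* and *SSBP1*, and they overlapped for the other 5 factors. The same ratio did not overlap for 20.2% of all tested genes, and the summed mRNA FPKM itself lay below all WT libraries in KO rep1 and rep3. This quantity was formed after the values of both were seen and was not tested.

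**Figure D3:**
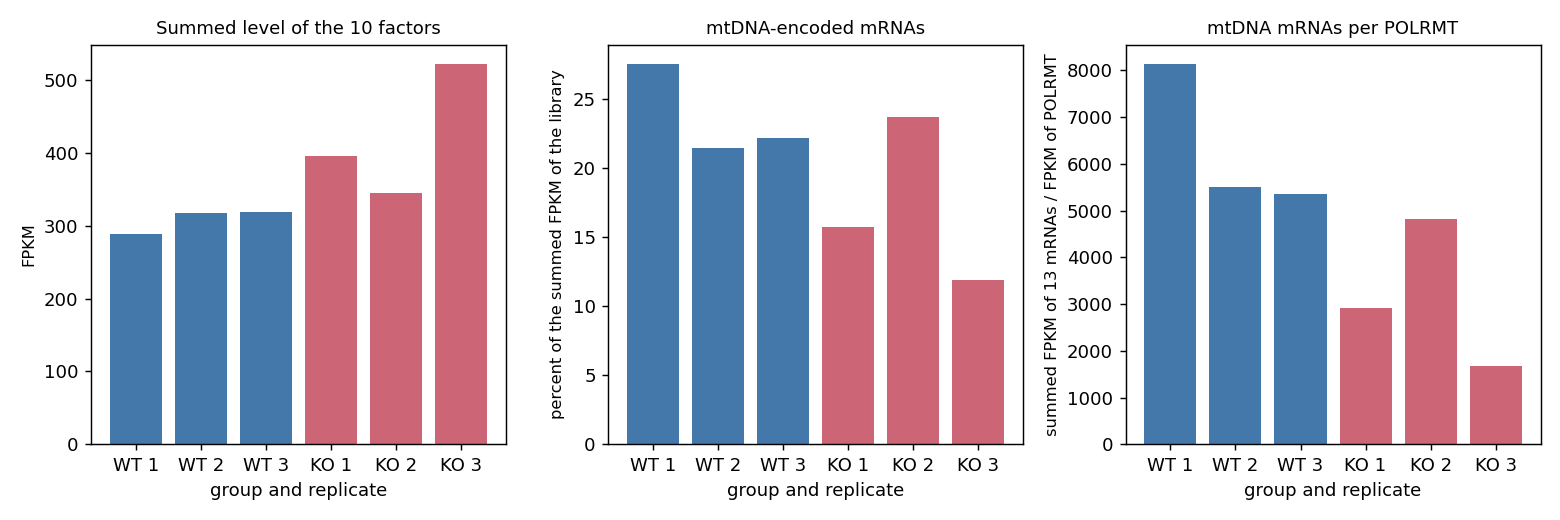
Summed FPKM of the 10 factors, the 13 mtDNA-encoded mRNAs as percent of the summed FPKM of the library, and summed mRNA FPKM per FPKM of *POLRMT* (y axes, from left to right), 1 bar per library with 3 WT and 3 KO libraries on each x axis. The factors sum to 289, 317 and 318 FPKM in WT and 396, 346 and 523 FPKM in KO, and KO rep3 has the highest sum and the lowest mRNA share, 11.9%.

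The other nuclear factors of mtDNA were examined in lists of known function. Of 12 further factors for replication, repair and primer processing, 12 had a positive log2 fold change, with a median of 0.58, and for 11 all KO libraries lay above all WT libraries, compared with a median of 0.09 and 18.3% for all tested genes. None of the 12 was called after adjustment, and 6 were higher in KO at the unadjusted threshold (10.2% of all tested genes). Without KO rep3 the median was 0.31. These included *FEN1*, the flap endonuclease that removes primers in the nucleus and in mitochondria, which was measured at 87.6, 65.2 and 96.3 FPKM in WT and 120, 139 and 225 FPKM in KO (log2 fold change 0.92, unadjusted p = 0.00841 with limma). *TOP3A*, a topoisomerase that separates daughter mtDNA molecules (0.65, unadjusted p = 0.0118), *LIG3*, the DNA ligase of mitochondria (0.67, unadjusted p = 0.0153), and *POLDIP2*, a polymerase-interacting protein (0.55, unadjusted p = 0.0241), followed in the limma fit. *FEN1*, *TOP3A*, *LIG3* and *DNA2* are also known to act on nuclear DNA.

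Among 7 further factors of transcription, termination and rRNA methylation, 7 had a positive log2 fold change, with a median of 0.28, and 3 were higher in KO at the unadjusted threshold, compared with 60.6% and 10.2% of all tested genes. The median was 0.18 with median-of-ratios scaling, where that of all tested genes was -0.02, and 0.17 without WT rep3. *TFB1M*, the rRNA methyltransferase related to *TFB2M*, was measured at 7.87, 9.53 and 8.999 FPKM in WT and at 13.5, 12.7 and 22.8 FPKM in KO (log2 fold change 0.81, unadjusted p = 0.00940 with limma). *MRPL12*, a ribosomal protein that also binds POLRMT, had a log2 fold change of 0.86 (unadjusted p = 0.0173), and *MTERF3*, a negative regulator of mtDNA transcription, of 0.74 (unadjusted p = 0.0408, limma). Of its relatives, *MTERF4* had a log2 fold change of 0.02 and *MTERF1* of 0.13.

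Of 19 factors for the cleavage, polyadenylation, granules and decay of mitochondrial RNA, 19 had a positive log2 fold change, with a median of 0.29, and 4 were higher in KO at the unadjusted threshold, compared with 60.6% and 10.2% of all tested genes. The median was 0.17 with median-of-ratios scaling or quantile normalization, where those of all tested genes were -0.02 and -0.01. It was 0.19 without KO rep3 and 0.44 without KO rep2. *PNPT1*, the exoribonuclease that degrades mitochondrial RNA, was measured at 14.4, 11.6 and 16.1 FPKM in WT and at 22.1, 19.3 and 34.2 FPKM in KO, without overlap (log2 fold change 0.79, unadjusted p = 0.0108 with limma). *DHX30*, a helicase of RNA granules (0.52, unadjusted p = 0.0174), *ELAC2*, which cuts tRNAs out of the long transcripts (0.53, unadjusted p = 0.0251), and *FASTKD2* (0.63, unadjusted p = 0.0312, limma) were the others. *SUPV3L1*, the helicase partner of *PNPT1*, and *MTPAP*, the poly(A) polymerase of mitochondria, had log2 fold changes of 0.15 and 0.17.

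Genes for the supply of nucleotides to mitochondria showed no such direction. Of 9 tested genes of 10, 5 had a positive log2 fold change (60.6% of all tested genes), with a median of 0.04. This median turned to -0.08 with median-of-ratios scaling, -0.07 with quantile normalization and -0.09 with chromosome medians removed. The median of all tested genes also fell under these settings, from 0.09 to -0.02, -0.01 and -0.02, respectively. At the unadjusted threshold 1 gene of the list was lower in KO, compared with 2.33% of all tested genes. This was *ABAT*, a transaminase that also acts in mitochondrial nucleoside salvage, at 41.5, 77.2 and 49.2 FPKM in WT and 23.8, 49.0 and 15.7 FPKM in KO. The groups overlapped in KO rep2 and the log2 fold change was -1.02 (unadjusted p = 0.0396, adjusted p = 0.284 with limma).

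Finally, regulators known to act on nuclear genes of mitochondria were examined. Of 10 tested genes of 11, 6 had a positive log2 fold change, with a median of 0.15 that turned to -0.10 with chromosome medians removed, and 2 were higher in KO at the unadjusted threshold. Over all tested genes these were 60.6% and 10.2%. With chromosome medians removed the median of all tested genes was -0.02, and without KO rep3 that of the regulators was 0.085. *PPRC1*, a coactivator of the PGC-1 family, was measured at 15.1, 14.9 and 14.8 FPKM in WT and at 21.3, 22.8 and 39.3 FPKM in KO, without overlap (log2 fold change 0.82, unadjusted p = 0.00866, adjusted p = 0.261 with limma). *MYC*, a transcription factor that acts on many growth genes, was measured at 18.6, 29.3 and 25.2 FPKM in WT and at 44.1, 29.3 and 57.7 FPKM in KO, where KO rep2 and WT rep2 were nearly equal (log2 fold change 0.80, unadjusted p = 0.0196, limma). *NRF1*, whose motif letters stand in the promoters of *POLRMT*, *TFAM*, *TFB2M* and *POLG2*, was measured at 5.47, 5.18 and 6.28 FPKM in WT and at 6.55, 5.72 and 7.79 FPKM in KO (log2 fold change 0.22, unadjusted p = 0.244, limma), with overlapping groups. *GABPA*, the DNA-binding subunit of the ETS-family factor, had a log2 fold change of 0.21 (unadjusted p = 0.287, limma). Of the genes with negative values, *PPARGC1B*, a further PGC-1 coactivator, had a log2 fold change of -0.39 and *GABPB2* of -0.30, and for *CREB1* (-0.15) all KO libraries lay below all WT libraries. *PPARGC1A*, the coactivator known best from muscle and brown fat, was under the filter of 0.5 FPKM.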

How the data were processed

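Poly(A)-selected, stranded libraries of HaCaT cells, 3 WT and 3 *FGFR2* KO, were sequenced, and the authors deposited 1 table of FPKM values per library. Per the labels and the study's methods, reads were trimmed with fastp 0.20.0 and quantified with kallisto 0.46.1 against GRCh38 transcripts. How FPKM values were formed from the estimates, and whether strand was used, is not given in the sources used here. The tables hold 21493 genes. The 18 rows for the copies of genes shared by X and Y on chromosome Y equalled their X copies and were dropped, which left 21475 genes, of which 21400 had a symbol in GENCODE release 44, the source of gene positions. Only 65.8 to 68.9% of low values came out as whole fragments within 0.02 (chance 4%), so that counts were not recovered and count models were not used. The 10 factors, the gene lists and the tests were chosen with earlier results of these data known.

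log2(FPKM + 0.5) values were compared in R 4.3.3 with limma 3.58.1 (mean-variance trend, no covariate) over the 12241 genes whose mean reached 0.5 FPKM, and p-values were adjusted by Benjamini-Hochberg. A gene was called where its adjusted p was 0.05 or less and its log2 fold change 0.5 or more in either direction, and the unadjusted threshold used the same fold change. Single values and ratios were compared by exact two-sided permutation tests. The text names all 10 factors, the highest and lowest mtDNA-encoded mRNA, up to 4 genes per direction and list past the unadjusted threshold by smallest p, *FGFR2*, and the 5 genes most like the factor with the smallest p. Other genes were named after their values were seen. Alternatives were other pseudocounts, filters and scalings, chromosome medians removed, a replicate block, no trend, library weights and leaving out each library. Deviations from the group means correlated at -0.21, 0.22 and 0.05 between libraries with the same number, and at -0.37 to 0.29 between those with different numbers. With 3 libraries per group these values cannot decide whether the numbers pair the libraries, and the labels do not say. The limma script was tested on simulated data. Promoters are from RefSeq, and the mtDNA stretch is from the hg38 genome. Processed pseudogenes named after *POLRMT*, *TFAM* and *SLIRP* are not among the genes in the tables, and how reads shared with them were counted is not known.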

Additional observations from a re-analysis of the deposited data

How the results depend on the processing

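All 10 factors had a log2 fold change above 0 under every alternative run except without KO rep3, where *TFAM* was at -0.058. Their median was 0.34 to 0.55 when single libraries were left out. The number past the unadjusted threshold was 4, and 6 with a common sum (TPM), 2 with a common sum of nuclear FPKM, with chromosome medians removed, with no filter and with the replicate block, 0 with median-of-ratios scaling and quantile normalization, 3 with library weights, and 0 to 5 when single libraries were left out. Without single libraries *TFAM* was at -0.058 to 0.31.

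Library weights gave 1396 calls, 3 of them factors, where all others gave 0. Past the unadjusted threshold, 1251 of all tested genes were higher and 285 lower in KO (81.4% higher), compared with 785 and 521 (60.1%) with median-of-ratios scaling and 930 and 400 (69.9%) with nuclear FPKM. Without single libraries their sum was 633 (without KO rep3) to 2262 (without KO rep2). The replicate block, with a smallest adjusted p of 0.121 among the factors, gave 1336 and 426.

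The median of the further transcription factors was 0.21 with nuclear FPKM, 0.18 with median-of-ratios scaling, 0.20 with quantile normalization and 0.17 with chromosome medians removed. That of the mtDNA-encoded mRNAs was -0.16 with quantile normalization. With median-of-ratios scaling, quantile normalization and chromosome medians removed, the median was -0.076, -0.073 and -0.092 for nucleotide supply and 0.040, 0.049 and -0.10 for the regulators. The median of all tested genes was -0.017, -0.0084 and -0.018 under these settings, compared with 0.088 in the main fit. When single libraries were left out, medians were 0.31 to 0.70 for further replication factors, 0.17 to 0.38 for further transcription factors and -0.0022 to 0.15 for nucleotide supply, and -0.84 to -0.32 for the mtDNA-encoded mRNAs. The log2 difference was then -0.036 to 0.17 for *TFB2M* per *POLRMT*, -0.18 to 0.041 for *TEFM* per *POLRMT* and -0.093 to 0.19 for *POLG2* per *POLG*. The causes of these shifts were not tested.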
